A study of Mus musculus with 2 samples.

Results

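Matrix metalloproteinases and their tissue inhibitors were followed across the cell types of the atherosclerotic mouse aorta. The 10 genes were taken by symbol from the 32285 genes of the deposited matrices and comprised 7 proteinases (Mmp2, Mmp3, Mmp9, Mmp12, Mmp13, Mmp14, Mmp19) and 3 inhibitors (Timp1, Timp2, Timp3). Single-cell RNA-seq with the 10x Genomics method was measured in 2 libraries, 1 per group, of aortic cells bound to beads against CD31, a surface protein of endothelial cells. The WT library came from ApoE-/- mice of the C57BL/6 background on a Western diet. The EC-iCD45KO library came from mice of that same background and diet in whose endothelial cells CD45 was deleted, in addition, by tamoxifen induction. Both groups therefore lacked ApoE, and no group on another diet was analysed here. The promoter that drives the recombinase, the number of animals in a library, their age and the duration of the diet are not given in the sources used here. With 1 library per group no difference between the groups has a replicate check, and no p-value was computed.

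Matrix metalloproteinases are zinc enzymes, made mostly as inactive precursors, that cut collagens, elastin, proteoglycans and cell surface proteins. The TIMP proteins bind their active site and block them, and Timp2 also helps the membrane-bound Mmp14 to activate the Mmp2 precursor. In the atherosclerotic artery these enzymes are known from macrophages, smooth muscle cells and fibroblasts, where they take part in remodelling of the plaque and of the elastic wall.

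The deposited matrices held 39849 barcodes and 92058043 UMIs (unique molecular identifiers, each marking 1 captured RNA molecule) in the WT library, and 30278 barcodes and 88967918 UMIs in the EC-iCD45KO library. After filtering and removal of likely doublets 35552 and 26064 cells remained. Cells were grouped by marker genes without the 10 genes themselves, and 13 classes were named. They included endothelial (EC-like, 3724 WT and 4086 EC-iCD45KO cells), smooth muscle (SMC-like, 2500 and 3700), fibroblast-like (2375 and 2444) and macrophage-like cells (3434 and 9406). Despite the CD31 beads, EC-like cells made up only 10.5% and 15.7% of the cells. Lymphoid cells were a larger share of the WT library, with 11.4% T/NK-like, 16.2% B-like and 4.66% plasma-like cells, than of the EC-iCD45KO library, with 1.85%, 1.29% and 0.295%. The libraries shared 340 barcodes (0.853% and 1.12% of each), and the profiles of such pairs were no more alike than those of other pairs (median r 0.39 for both). Ptprc, which encodes CD45, was at 288 and 112 CPM in EC-like cells of the WT and EC-iCD45KO libraries (log2 ratio -1.37). Ratios below 0 were found as well where the labels place no deletion: -1.32 in fibroblast-like, -0.92 in SMC-like and -0.83 in macrophage-like cells.

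Levels are given as CPM, the UMIs of a gene per 1e+06 UMIs of all cells of a class, with exact 95% Poisson intervals. Those intervals, and those of the log2 ratios of EC-iCD45KO over WT, cover counting error only. A level is compared between classes and libraries for 1 gene at a time. The share of cells that had a UMI was read after thinning every cell to 1000 UMIs. T/NK-like and B-like cells, which are not known as main sources of these genes, serve as a guide to the level that free RNA can leave in a droplet. Their median depths were 1994 and 2639 UMIs (T/NK-like) and 2011 and 2559 UMIs (B-like) in the WT and EC-iCD45KO libraries, above the 1386 and 1268 UMIs of EC-like cells.

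**Figure D1:**
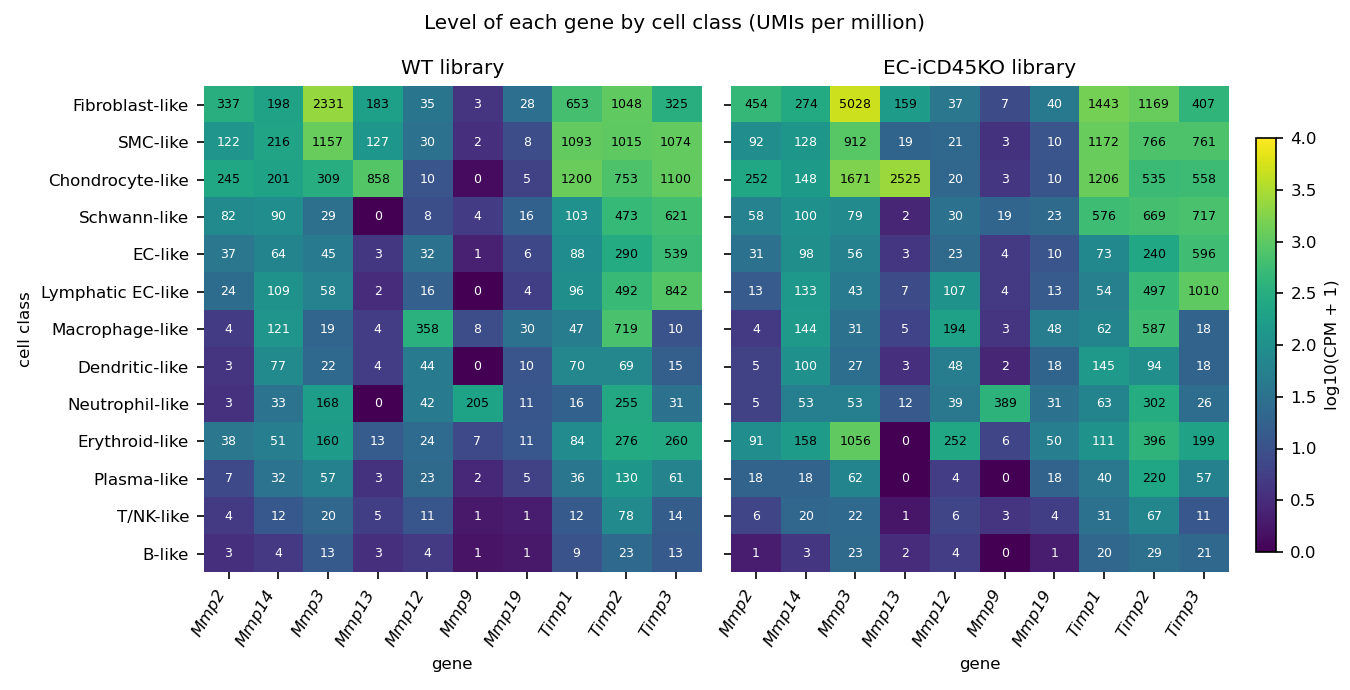
Level of each of the 10 genes in 13 cell classes, for the WT library (left) and the EC-iCD45KO library (right). Columns are genes, rows are classes, the number in each cell is the level in CPM, rounded to whole numbers, and the colour is log10(CPM + 1). In both libraries Mmp9 is highest in the neutrophil-like row and Mmp13 in the chondrocyte-like row. Mmp12 is highest in the macrophage-like row in WT and in the erythroid-like row in EC-iCD45KO (252 CPM, beside 194 CPM in macrophage-like cells), while Timp2 is spread over most rows.

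Mmp3 (stromelysin-1, which cuts proteoglycans and activates other metalloproteinase precursors) had its highest level in fibroblast-like cells. The WT library had 2331 CPM (2286 to 2377) there, and the EC-iCD45KO library had 5028 CPM (4972 to 5085). SMC-like cells followed with 1157 and 912 CPM and chondrocyte-like cells with 309 and 1671 CPM. The ranges of those last classes over the 2 libraries overlapped, so their order is not settled. EC-like cells held 45.5 and 55.7 CPM, above the 19.8 and 22.3 CPM of T/NK-like and the 12.7 and 22.9 CPM of B-like cells. Erythroid-like droplets, which should lack the gene, held 160 CPM in WT and 1056 CPM in EC-iCD45KO, where 13 droplets with at least 10 Mmp3 UMIs made up 59.7% of it.

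Mmp13 (collagenase-3, which cleaves fibrillar collagen and is a marker of hypertrophic cartilage) was highest in chondrocyte-like cells, at 858 CPM in WT and 2525 CPM in EC-iCD45KO. This cluster was led by Ibsp, Col2a1, Chad, Col10a1 and Bglap, genes of cartilage and mineralising tissue, and had 844 WT and 127 EC-iCD45KO cells. The level of fibroblast-like cells was 9.91-fold lower on the mean of both libraries, at 183 and 159 CPM. One chondrocyte-like cell of EC-iCD45KO held 1005 of 1520 UMIs, and without the highest cell of each library in both classes the fold was 5.50. SMC-like cells followed with 127 and 18.6 CPM, and EC-like cells stood at 3.44 and 3.31 CPM. T/NK-like cells had 4.53 and 0.744 CPM and B-like cells 2.58 and 2.18 CPM, where the EC-iCD45KO values rest on 1 and 2 UMIs. No other named class exceeded 13.3 CPM in either library.

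Mmp12 (macrophage elastase) was highest in macrophage-like cells on the mean of both libraries, with 358 CPM (348 to 368) for WT against 194 CPM (189 to 198) for EC-iCD45KO. In EC-iCD45KO the erythroid-like droplets were higher still, at 252 CPM (202 to 312) on 86 UMIs, beside 24.4 CPM on 11 UMIs in WT, so the first place is not settled over both libraries. Lymphatic EC-like cells held 15.6 and 107 CPM, or 8.91 and 59.97 CPM without the highest cell of each library. Dendritic-like cells held 44.3 and 48.1 CPM, and the order of these classes is not settled either. In T/NK-like cells the level was 10.6 and 5.95 CPM. The EC-like level of 31.6 and 22.9 CPM was above that of T/NK-like cells, but under that of the erythroid-like droplets in EC-iCD45KO. In EC-like cells 12 macrophage markers summed to 4063 and 6525 CPM, beside 28051 and 31644 CPM in macrophage-like cells. The part of macrophage RNA in the EC-like Mmp12 was not tested.

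Mmp13, Mmp12 and Mmp3 are neighbours on chromosome 9 and lie within 183 kb of each other on the plus strand (chr9:7272514-7455975, GRCm38, GENCODE M21). Mmp12 overlaps Mmp1b on the opposite strand. Mmp3 and Mmp13 had similar profiles over the 13 classes (Pearson r 0.81 of log2(CPM + 1)), whereas Mmp12 did not follow Mmp3 (0.13) or Mmp13 (-0.02). These correlations describe 13 class means drawn from the same 2 libraries. The letters TGANTCA, the binding motif of the Fos and Jun dimers known as AP-1 (it reads the same on both strands), were searched for in the 250 bases before each RefSeq transcription start. They occur in 6.75% of 32851 promoters of that length. Of the 7 genes with a promoter in the RefSeq table, Mmp3 and Mmp13 had 1 match each, and Mmp12 had 1 before its start at 7347374 but none before that at 7344397. Mmp14, Timp1, Timp2 and Timp3 had none, and Mmp2, Mmp9 and Mmp19 had no entry. The 120 bases before those 3 starts are shown because the motif lies at a like distance in each, with its first base 46 (Mmp3), 35 (Mmp13) and 44 (Mmp12) bases before the start. They come from RefSeq on GRCm38.p6, plus strand, with the motif in capitals.
Mmp3, chr9:7445702-7445821: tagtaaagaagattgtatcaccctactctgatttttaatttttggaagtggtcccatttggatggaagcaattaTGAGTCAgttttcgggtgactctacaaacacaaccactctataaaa
Mmp13, chr9:7272394-7272513: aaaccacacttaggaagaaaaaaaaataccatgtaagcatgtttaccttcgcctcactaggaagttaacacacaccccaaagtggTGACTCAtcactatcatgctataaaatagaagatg
Mmp12, chr9:7347254-7347373: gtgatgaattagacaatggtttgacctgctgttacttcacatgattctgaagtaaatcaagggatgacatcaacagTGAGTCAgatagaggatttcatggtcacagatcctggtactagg
A match is a description of the letters, and no binding was measured.

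The gelatinases, which cut denatured collagen and basement membrane collagen, had different sources. Mmp2 was highest in fibroblast-like cells (337 CPM in WT, 454 CPM in EC-iCD45KO), then in chondrocyte-like (245 and 252 CPM) and SMC-like cells (122 and 91.9 CPM), and each of these classes was apart from the next in both libraries. EC-like cells held 37.4 and 31.0 CPM and macrophage-like cells 4.2 and 3.8 CPM, the latter beside 3.73 and 5.95 CPM in T/NK-like cells, with overlapping counting intervals in both libraries. Erythroid-like droplets held 37.8 and 90.9 CPM of Mmp2, so the EC-like level did not exceed theirs. Mmp9, which neutrophils store in granules, was at 205 CPM (174 to 241) and 389 CPM (362 to 418) in neutrophil-like cells. The class next in order had 25.6-fold less on the mean of both libraries. EC-like cells held 11 and 37 Mmp9 UMIs in all (1.35 and 3.71 CPM), beside 0.905 and 2.98 CPM in T/NK-like cells.

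Mmp14 (MT1-MMP, anchored in the membrane) had no single source. Fibroblast-like cells were at 198 and 274 CPM, SMC-like cells at 216 and 128 CPM, chondrocyte-like cells at 201 and 148 CPM and macrophage-like cells at 121 and 144 CPM, and the ranges of neighbouring classes overlapped. EC-like cells held 63.5 and 97.8 CPM, against 11.7 and 20.1 CPM in T/NK-like and 3.57 and 3.28 CPM in B-like cells. Erythroid-like droplets held 51.1 and 158 CPM of Mmp14, on 23 and 54 UMIs, so the EC-like level was under theirs in EC-iCD45KO. Mmp19, a secreted proteinase of basement membrane proteins, was low everywhere, with 29.6 and 48.5 CPM in macrophage-like and 27.6 and 40.0 CPM in fibroblast-like cells. Among the macrophage-like clusters present in both libraries it was highest in the cluster led by Chil3 (84.5 and 127 CPM). A WT-only cluster of 51 cells had 103 CPM (54.7 to 176) on 13 UMIs, 11 of them in 1 cell, and 15.8 CPM without that cell.

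Among the inhibitors, Timp1 was highest in mesenchymal cells. Chondrocyte-like cells held 1200.0 and 1206 CPM, SMC-like cells 1093 and 1172 CPM and fibroblast-like cells 653 and 1443 CPM. Schwann-like cells ranged from 103 CPM in WT to 576 CPM in EC-iCD45KO, and EC-like cells held 87.6 and 73.2 CPM. Erythroid-like droplets held 84.5 and 111 CPM of Timp1, T/NK-like cells 12.4 and 30.5 CPM and B-like cells 9.48 and 19.7 CPM. Timp2 was the most evenly spread: 1048 and 1169 CPM in fibroblast-like, 1015 and 766 CPM in SMC-like, 719 and 587 CPM in macrophage-like, 289.6 and 240.5 CPM in EC-like and 77.7 and 67.0 CPM in T/NK-like cells. Timp3, which binds to the matrix and also blocks adamalysins, was at 842 and 1010.1 CPM in lymphatic EC-like, 1074 and 761 CPM in SMC-like and 539 and 596 CPM in EC-like cells. Macrophage-like cells held 9.51 and 17.7 CPM of Timp3, beside 14.1 and 11.2 CPM in T/NK-like and 12.7 and 20.7 CPM in B-like cells. Endothelial cells of both kinds therefore had Timp3 well above that guide, and macrophage-like cells had Timp2 above it, while their Timp3 did not exceed the higher of the 2 guide classes in either library.

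The difference between the libraries was then read in the 4 main classes. A gene was called where its level differed at least 2-fold, counting only genes that averaged 5 CPM or more in the class. In EC-like cells, where CD45 was deleted by design, none of the 8 members that passed this minimum was called, beside 1.52% of 10966 genes called higher and 3.49% called lower in EC-iCD45KO. The median log2 ratio of those 8 was -0.06, and that of all genes tested was 0.00 to 2 decimals (-0.0037). With no test between groups, this gives the size of the differences and does not show that the levels were alike. Mmp14 was higher in EC-iCD45KO, with 517 UMIs in WT and 977 UMIs in EC-iCD45KO (log2 ratio 0.62, 0.47 to 0.78), and 4.88% and 7.59% of thinned cells had a UMI. Mmp19 differed by 0.69 (0.20 to 1.20) on 52 and 103 UMIs, and passed 2-fold without doublet removal and at Leiden resolution 2 (1.01 and 1.02). Mmp3 was 0.29 higher (0.10 to 0.49) and Timp3 0.14 higher (0.09 to 0.20), while Timp1 (-0.26), Timp2 (-0.27), Mmp2 (-0.27) and Mmp12 (-0.46) were lower. Of the 713 Timp1 UMIs in WT, 91 came from 1 cell. Without the highest cell of each library Timp1 was at 76.5 and 71.7 CPM (-0.09). The signs of Timp1, Timp2, Timp3, Mmp2 and of the median changed under at least 1 alternative processing, over which the median ran from -0.14 to 0.22.

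The EC-like class held 3 clusters, and these differed widely in Mmp2, Timp2 and Timp3. The large-artery cluster, led by Sfrp1, Edn1 and Gja5, had 120.2 and 159 CPM of Mmp2, against 3.76 and 9.33 CPM in the capillary cluster (Gpihbp1, Car4) and 15.3 and 11.3 CPM in the venous cluster (Ackr1, Selp). Timp2 followed it, with 574 and 530.1 CPM in the large-artery, 262 and 268 CPM in the venous and 82.1 and 76.5 CPM in the capillary cluster. Timp3 had another order, with 986 and 1055 CPM in the capillary cluster and between 346 and 445 CPM in the others. These orders were the same in both libraries. The difference in Mmp14 was in the venous cluster (60.4 and 117 CPM, log2 ratio 0.96) and the capillary cluster (33.8 and 70.5 CPM, 1.06, or 30.5 and 58.7 CPM and 0.94 without the highest cell of each library), while the large-artery cluster had 103 and 89.3 CPM (-0.20, -0.54 to 0.13). In the capillary cluster the thinned share was 1.96% and 2.08%, so the difference in level there was not seen in the share of cells. By cluster, some members were called higher and none lower. In the venous cluster Mmp19 was called, on 31 and 89 UMIs (1.14, or 0.99 without the highest cells), beside 2.49% of genes called higher and 4.31% lower. In the capillary cluster Mmp14 and, on 8 and 31 UMIs, Mmp2 were called (1.31, 0.16 to 2.65), beside 1.82% and 4.24%. T/NK-like cells had 3.73 and 5.95 CPM of Mmp2, near these capillary levels. In the capillary cluster 1 WT cell held 74.0% of the Timp1 UMIs. Without the highest cell of each library Timp1 there was at 15.0 and 37.3 CPM (1.31), beside 12.4 and 30.5 CPM in T/NK-like cells. In the large-artery cluster Mmp3 was called, at 56.5 and 132 CPM on 110 and 182 UMIs (1.23, 0.88 to 1.58), beside 3.44% and 5.51%. The large-artery cluster made up 832 of 3724 WT and 479 of 4086 EC-iCD45KO cells. With equal weights for the clusters, an alternative added after the data were seen, the log2 ratio of Mmp2 in the class was 0.37 in place of -0.27, and the part of this makeup in the difference was not tested.

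Markers of other cells moved in the EC-like class as well. The summed level of 12 macrophage markers was 4063 CPM in WT and 6525 CPM in EC-iCD45KO, with all 12 higher, none of them at 0, and 28051 and 31644 CPM in macrophage-like cells themselves. The 13 SMC markers summed to 820 and 1009 CPM (11 higher), the 12 fibroblast markers to 678 and 606 CPM (8 higher), and the 9 B-cell markers to 1825 and 633 CPM (0 higher). The 12 T/NK markers summed to 480 and 90.7 CPM (1 higher) and the 9 neutrophil markers to 69.9 and 192 CPM (5 higher). The part of all these markers in the differences of Mmp14, Mmp12 and Ptprc was not tested.

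**Figure D2:**
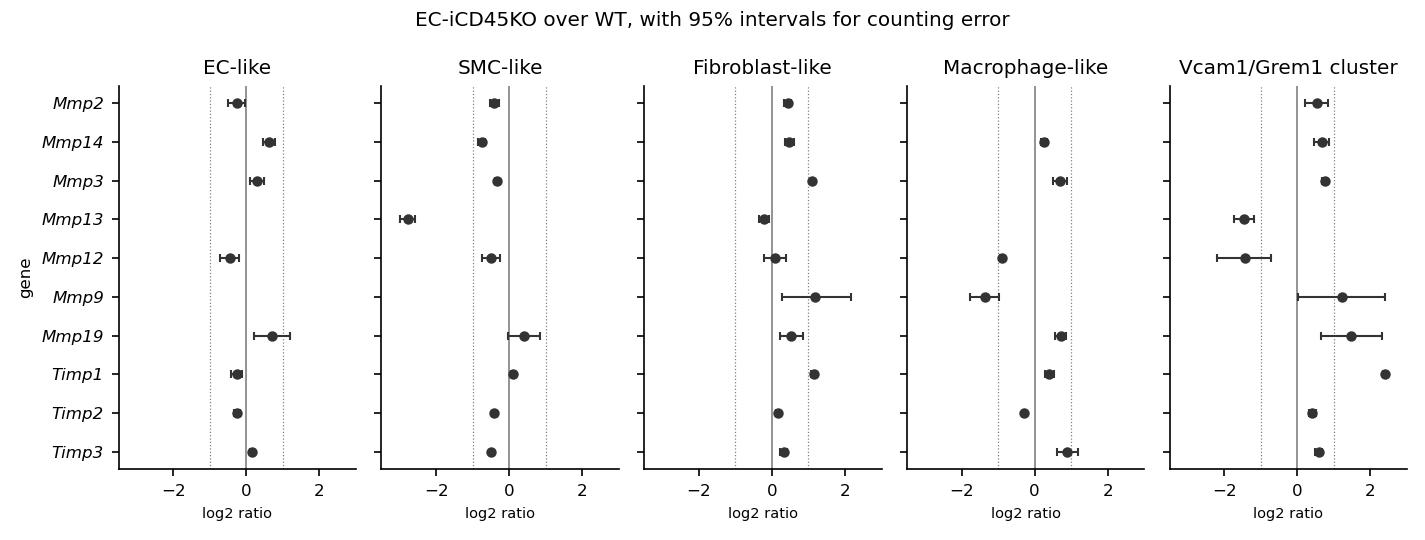
Log2 ratio of the level in the EC-iCD45KO library over the WT library for each gene that averaged 5 CPM or more, in 4 classes and in the unnamed Vcam1/Grem1 cluster. Points are ratios of summed UMIs, bars are 95% intervals for counting error with 1 library per group, the solid line marks no difference and the dotted lines a 2-fold difference. Mmp3, Mmp9 and Timp1 lie above 2-fold in fibroblast-like cells and Mmp9, Mmp19 and Timp1 in the Vcam1/Grem1 cluster. Below 2-fold lie Mmp13 in SMC-like cells, Mmp9 in macrophage-like cells, and Mmp12 and Mmp13 in the Vcam1/Grem1 cluster, and no gene lies beyond either line in EC-like cells.

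Fibroblast-like cells had the most calls of the 4 classes. Of 10 members tested, 3 were called higher in EC-iCD45KO (Mmp3, Mmp9 and Timp1) and none lower, beside 1.6% of 11085 genes called higher and 4.77% called lower. The median log2 ratio of the members was 0.45, and that of all genes -0.05. Mmp3 was higher by 1.11 (1.08 to 1.14), on 10215 UMIs in WT and 30668 in EC-iCD45KO, and 44.2% and 59.0% of thinned cells had a UMI. Timp1 was higher by 1.14 (1.08 to 1.21), on 2862 and 8804 UMIs, and the shares were 23.6% and 44.7%. Thus both the level and the share of cells were higher for the proteinase and for the inhibitor. The call of Mmp9 rested on 14 and 44 UMIs (0.28 to 2.16). Its level was 3.19 and 7.21 CPM, beside 0.905 and 2.98 CPM in T/NK-like cells. The 9 neutrophil markers in this class summed to 178 and 233 CPM (6 higher), and their part was not tested. Mmp2 (0.43), Mmp14 (0.47), Mmp19 (0.53), Timp3 (0.32) and Timp2 (0.16) were higher by less than 2-fold. Mmp13 was 0.21 lower (-0.34 to -0.07), although 3.1% of WT and 6.85% of EC-iCD45KO thinned cells had a UMI, and the highest 10 cells held 81.9% and 43.4% of its UMIs. Without the highest cell of each library the log2 ratio of Mmp13 was 0.051, and with a stricter cell filter it was 1.29. Mmp12 was at 35.1 and 37.4 CPM (0.09, -0.21 to 0.39), but 1 WT cell held 54.5% of its UMIs, and without the highest cell of each library the levels were 16.0 and 34.9 CPM (1.13), past the 2-fold call. The 12 fibroblast markers summed to 18586 and 17977 CPM, with 6 of 12 higher. The macrophage markers in this class summed to 4126 and 6211 CPM (12 of 12 higher). For the 12 T/NK markers the sums were 534 and 118 CPM (0 higher), and for the 9 B-cell markers 1878 and 365 CPM (0 higher). The part of all these markers was not tested. Macrophage-like cells had 18.9 and 30.6 CPM of Mmp3 and 47.3 and 62.3 CPM of Timp1.

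In SMC-like cells, 1 of 9 members was called, Mmp13, which was lower, beside 3.04% of 10844 genes called lower and 1.85% called higher. The median log2 ratio was -0.41 for the members and -0.06 for all genes. Mmp13 was at 127 CPM (1111 UMIs) in WT and 18.6 CPM (250 UMIs) in EC-iCD45KO (log2 ratio -2.78, -2.98 to -2.58). Few cells carried it: 19 WT cells and 5 EC-iCD45KO cells with at least 10 UMIs held 92.4% and 70.0% of it. Without the highest cell of each library the levels were 93.2 and 11.2 CPM (-3.05). Of its UMIs 1096 in WT and 237 in EC-iCD45KO came from 1 cluster of the class, the deep cluster described next. The call was lost under 3 alternatives. Mmp13 was under the minimum of 5 CPM with a stricter cell filter (0.849 and 2.18 CPM, on 2 and 17 UMIs), at Leiden resolution 2 (3.05 and 1.90 CPM) and without the deep cluster (5.43 and 2.44 CPM). Mmp14 was lower by 0.75 in log2 units (216 and 128 CPM), Timp3 by 0.50 (1074 and 761 CPM), and Timp1 was 0.10 higher (0.06 to 0.14). Timp1 was 1.53 higher with the stricter cell filter, past the 2-fold call, 0.89 higher at resolution 2 and 0.76 higher with single-cell means.

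This class joined a pair of clusters that differed in depth and in content. One, led by Cnn1, Tagln and Myl9, had a median of 1206 and 1204 UMIs per cell (1821 and 2995 cells). The other, led by Acta2, Cnn1, Vcam1 and Wnt16, had 7756 and 10984 UMIs per cell (679 and 705 cells). The deep cluster also carried more RNA of 13 genes of modulated smooth muscle, such as Spp1, Lum and Dcn (40376 and 33860.5 CPM, against 9962 and 12608 CPM in the shallow cluster). Its 9 contractile genes summed to 14433 CPM in WT and 27427 CPM in EC-iCD45KO, against 15062 and 18463 CPM in the shallow cluster. The part of this shift in the differences of the deep cluster was not tested. Mmp3 was at 1621 and 1354 CPM in the deep cluster and 153 and 238 CPM in the shallow one. Mmp14, Timp3 and Timp2 were lower in the deep cluster: Mmp14 there was 278 and 155 CPM (-0.85), Timp3 was lower in EC-iCD45KO than its 1401 CPM in WT (-0.49), and Timp2 was 1229.5 and 915 CPM (-0.43). In the shallow cluster these were 81.5 and 87.4 CPM (0.10), 366 and 396 CPM (0.11), and 551 and 539 CPM (-0.03). Mmp12 was lower in both clusters, at 19.6 and 8.98 CPM in the deep one (-1.13, -1.57 to -0.69) and 51.4 and 39.5 CPM in the shallow one (-0.38, -0.70 to -0.06). In the whole class its log2 ratio (-0.50) was above 0 with the stricter filter (0.46), the looser filter (0.33) and at resolution 2 (0.83). In the deep cluster 1 cell of each library held 59.0% and 54.8% of the Mmp12 UMIs, and without those cells the levels were 8.04 and 4.06 CPM (-0.99). Timp1 had the reverse pattern, with 141 and 439 CPM in the shallow cluster (1.64, 1.48 to 1.79) and 1533 and 1651 CPM in the deep one (0.11). In the shallow cluster Timp1 and, on 17 and 87 UMIs, Mmp19 were called higher (1.41 for Mmp19) and none lower, beside 2.96% of genes called higher and 5.48% lower. In the deep cluster Mmp12 and Mmp13 were called lower and none higher, beside 2.93% and 1.65%. Without the deep cluster the median of the members was 0.11 and the ratio of Mmp3 0.64 (-0.34 in the whole class), and at Leiden resolution 2 the median was 0.051 and Mmp3 0.28. The 13 SMC markers of the class summed to 18150 CPM in WT and 29004 CPM in EC-iCD45KO (13 of 13 higher), and the 12 fibroblast markers to 9190 and 6221 CPM (2 of 12 higher). The 12 macrophage markers summed to 2224 and 4436 CPM (11 of 12 higher) and the 9 neutrophil markers to 67.6 and 176 CPM (9 of 9 higher). For the 9 B-cell markers the sums were 1001 and 311 CPM (0 higher), and for the 12 T/NK markers 363 and 72.9 CPM (0 higher). The part of all these markers was not tested.

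A cluster of 2082 WT and 779 EC-iCD45KO cells stayed unnamed between fibroblast, pericyte and smooth muscle. It was led by Slurp1, Vcam1, Grem1, Ltbp2 and Prg4, and its modulated smooth muscle genes summed to 24833 and 34909 CPM, its contractile ones to 2262 and 3167 CPM. All 10 members passed the minimum. Mmp9, Mmp19 and Timp1 were called higher and Mmp12 and Mmp13 lower in EC-iCD45KO, beside 3.27% of 10949 genes called higher and 10% called lower. Timp1 was at 983 CPM in WT and 5194 CPM in EC-iCD45KO (log2 ratio 2.40), but 1 EC-iCD45KO cell held 1974 of its 6031 UMIs. Without the highest cell of each library the levels were 899 and 3494 CPM (1.96), and 35.3% and 65.5% of thinned cells had a UMI. Mmp3 was at 1222 and 2049 CPM (0.75), with shares of 28.9% and 44.0%. Mmp13 went the other way, at 276 and 101 CPM (-1.46) with shares of 9.45% and 2.56%. One EC-iCD45KO cell held 43.6% of its Mmp13 UMIs, and without the highest cell of each library the levels were 248 and 56.8 CPM (-2.13). Mmp13 was thus lower in this cluster and in the deep smooth muscle cluster and differed by less than 2-fold in fibroblast-like cells, while Timp1 was higher in this cluster, in fibroblast-like cells and in the shallow smooth muscle cluster. Markers of other cells moved in it as well. The 12 fibroblast markers summed to 6468 and 9954 CPM (6 higher), the 13 SMC markers to 2752 and 3756 CPM (12 higher) and the 12 macrophage markers to 5042 and 6865 CPM (10 higher). The 9 neutrophil markers summed to 254 and 482 CPM (6 higher, Ly6g at 0 in both) and the 14 EC markers to 682 and 393 CPM (2 higher). For the 9 B-cell markers the sums were 1987 and 282 CPM (0 higher), and for the 12 T/NK markers 876 and 94.7 CPM (0 higher). The part of all these markers was not tested. The Mmp9 call rested on 15 and 13 UMIs. In the cells that stayed unnamed outside this cluster, taken as 1 pool, 4 of 9 members tested were called higher (Mmp3, Mmp13, Mmp19 and Timp1) and none lower, beside 9.78% of 11171 genes called higher and 4.34% called lower.

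In macrophage-like cells, 1 of 8 members was called, Mmp9, which was lower, beside 1.94% of 9558 genes called lower and 0.743% called higher. The median log2 ratio was 0.33 for the members and -0.04 for all genes. Mmp9 was at 7.81 and 3.02 CPM, on 106 and 113 UMIs. The cluster led by Mrc1 and Ccl8 had 19.4 and 3.22 CPM and the foamy cluster 3.04 and 2.57 CPM. In the foamy cluster, where 1 WT cell held 13 of 19 UMIs, this is under the minimum and no ratio is read. Mmp12 was lower by 0.88 (0.83 to 0.94 in size), Mmp19 higher by 0.71 (0.55 to 0.87) and Timp3 higher by 0.90, though at levels near those of T/NK-like and B-like cells. Timp2 was lower by 0.29 and Mmp14 higher by 0.25. By cluster, several members were called higher. In the foamy cluster these were Mmp19 (15.2 and 32.9 CPM, 1.11), Timp1 (19.7 and 40.1 CPM, 1.02) and Timp3 (9.61 and 20.9 CPM, 1.12), beside 1.46% of genes called higher and 1.09% lower. T/NK-like cells, with 12.4 and 30.5 CPM of Timp1, and B-like cells, with 9.48 and 19.7 CPM, were higher in EC-iCD45KO too. In the Mrc1/Ccl8 cluster Mmp19 was called higher, on 22 and 187 UMIs (1.37, 0.73 to 2.08), and Mmp9 lower (-2.59), beside 1.11% and 2.12%. In the cluster led by Chil3, Mmp3 was called higher, on 45 and 290 UMIs (1.24), beside 1.44% and 4.35%. Without the highest cell of each library its Mmp3 was at 12.1 and 32.4 CPM (1.42), beside 19.8 and 22.3 CPM in T/NK-like and 12.7 and 22.9 CPM in B-like cells. Smooth muscle markers in this class summed to 122 and 278 CPM (13 of 13 higher), and their part in the Timp3 and Mmp3 differences was not tested.

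Mmp12 also differed among the macrophage subtypes. The foamy cluster, led by Gpnmb, Trem2 and Fabp5 (1442 and 3939 cells), held 571 CPM (552 to 590) for WT against 324 CPM (315 to 333) for EC-iCD45KO. The cluster led by Chil3 held 115 and 165 CPM, and the one led by Mrc1 and Ccl8 held 49.6 and 58.3 CPM. A further foamy cluster of 51 cells, led by Bex1, Gpnmb and Ctsk, was found only in the WT library, so it may mark that library. All 51 of its cells had an Mmp12 UMI, and its level was 5713 CPM. Without this cluster the log2 ratio of Mmp12 in the class was -0.66 in place of -0.88. Mmp12 was lower in EC-iCD45KO in the foamy cluster (log2 ratio -0.82), while the Chil3 and Mrc1/Ccl8 clusters had ratios above 0 (0.52 and 0.23). Leaving out the highest cell of each library, the Chil3 cluster had 56.8 and 137 CPM (1.27). With equal weights for the clusters the log2 ratio of the class was -0.43. Within the foamy cluster the share of thinned cells with an Mmp12 UMI was 14.1% in both libraries, so no difference in the share accompanied that in level. Its cells had a median of 3662 UMIs in WT and 1495 UMIs in EC-iCD45KO. Cells with at least 10 Mmp12 UMIs numbered 76 of 1442 and 129 of 3939 and held 83.1% and 71.6% of it.

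Timp2 followed the same order of subtypes as Mmp12 at its upper end, with 1873 CPM in the WT-only foamy cluster, 1166 and 983 CPM in the foamy cluster, 417 and 367 CPM in the Mrc1/Ccl8 cluster and 179 and 211 CPM in the Chil3 cluster. Mmp14 was at 175 CPM in both libraries in the Chil3 cluster and at 86.5 and 129 CPM in the Mrc1/Ccl8 cluster. Timp1, at 139 and 151 CPM in the Chil3 cluster, was between 17.4 and 40.1 CPM in the other clusters present in both libraries.

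Neutrophil-like and chondrocyte-like cells were few but held the highest Mmp9 and Mmp13. In neutrophil-like cells (448 and 1150) Mmp9 had a log2 ratio of 0.92 (0.67 to 1.19), and 13.5% and 29.4% of thinned cells had a UMI. Its 150 and 764 UMIs were spread over 83 and 344 cells, with no more than 9 and 11 in 1 cell. Of 9 members tested there, Mmp13 (0 and 24 UMIs), Mmp19 (8 and 60 UMIs) and Timp1 (12 and 124 UMIs) were called higher and Mmp3 (123 and 104 UMIs, -1.67) lower, beside 4.92% and 10.1% of genes. In WT 4 cells with at least 10 Mmp3 UMIs held 51.2% of them, and 35 of 448 WT and 92 of 1150 EC-iCD45KO cells had an Mmp3 UMI. For Timp1, 1 EC-iCD45KO cell held 38 of the 124 UMIs. In chondrocyte-like cells Mmp13 had a log2 ratio of 1.56, and without the highest cell of each library the levels were 712 and 855 CPM (0.26). The share of cells differed more than that level, since 68 of 844 WT cells and 73 of 127 EC-iCD45KO cells had a UMI (6.42% and 44.7% after thinning). Thinned to 2000 UMIs, which left 324 and 63 cells, the shares were 9.57% and 25.4%. Mmp3 in these cells was at 309 and 1671 CPM, with 9.94% and 35.9% of thinned cells, and Timp3 was at 1100 and 558 CPM, with 47.2% and 22.3%. Of 9 members tested in them, Mmp3, Mmp13 and, on 15 and 6 UMIs, Mmp19 were called higher and none lower, beside 5.82% and 7.65% of genes. Without the highest cell of each library Mmp19 was 0.94 higher, under 2-fold. Timp3 was then at 1050 and 492 CPM (-1.10), past 2-fold lower. As most cells of the cluster came from the WT library, the makeup of the cluster and the group cannot be told apart.

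**Figure D3:**
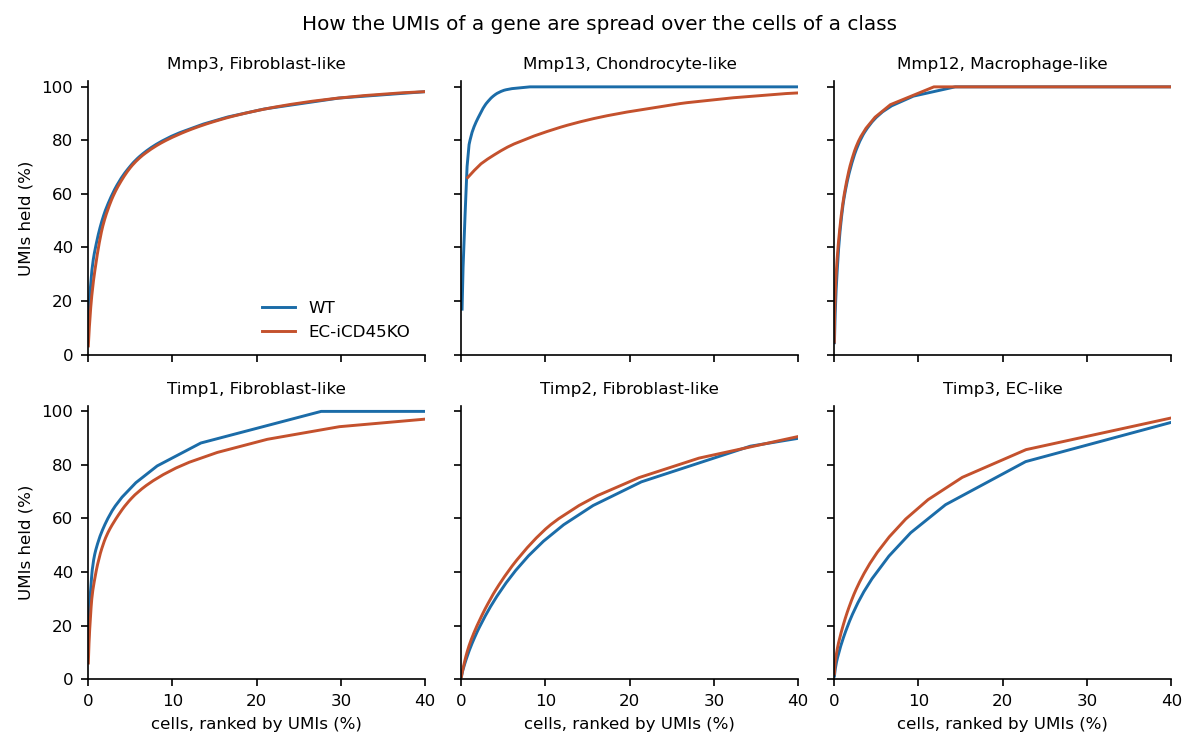
Cumulative percentage of the UMIs of a gene (vertical axis) over the cells of a class ranked from the most to the fewest UMIs (horizontal axis, percentage of cells, shown to 40), for the WT (blue) and EC-iCD45KO (orange) libraries. Steep curves mark genes carried by few cells: the top 1% of fibroblast-like cells held 41.8% and 35.8% of Mmp3 UMIs but 11% and 13.2% of Timp2 UMIs.

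The spread over cells was read for 6 genes, each in 1 class, and differed between them. The top 1% of macrophage-like cells held 55.2% (WT) and 56.1% (EC-iCD45KO) of Mmp12 UMIs, and the top 1% of fibroblast-like cells 49.2% and 41.2% of Timp1 UMIs. For Timp3 in EC-like cells the figures were 14.8% and 19.4%. A single fibroblast-like cell held up to 974 Mmp3 UMIs in WT and 990 in EC-iCD45KO, and 173 and 444 cells had at least 10.

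Other genes of the pathway were read from 6 lists. In EC-like cells, 1 of 6 other inhibitors (Tfpi2), 1 of 11 activators and receptors (Plau) and 1 of 11 adamalysins (Adamts4) were called higher and no gene of the 6 lists lower, beside the 1.52% and 3.49% of all genes tested. The median log2 ratio was 0.38 for activators and receptors, 0.29 for adamalysins, 0.42 for other elastases and collagenases, 0.08 for other inhibitors and 0.07 for matrix substrates, where all genes had 0.00 (-0.0037). Those 3 had under 50 CPM and are named after their values were seen. Among genes of at least 50 CPM, Adamts9, a proteoglycan-cutting adamalysin, was at 306 and 476 CPM (0.64), and the basement membrane genes Col4a1 (448 and 729.8 CPM, 0.71), Col4a2 (302 and 484 CPM, 0.68) and Lamb1 (35 and 69.2 CPM, 0.98) were higher. Timp4, the remaining TIMP, was at 134 and 153 CPM (0.19), and Serpine2, an inhibitor of plasminogen activators, at 67.4 and 43.3 CPM (-0.64). Ctss (0.47), Ctsl (0.43) and Ctsb (0.42), cathepsins that macrophages make in quantity, were higher beside the macrophage markers given above.

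In fibroblast-like cells, of 13 matrix genes tested, 2 were called higher and none lower (all genes 1.6% and 4.77%), the fibrillar collagens Col3a1 (1900 and 4478 CPM, 1.24) and Col1a1 (992 and 2189 CPM, 1.14), and Col1a2 followed (0.87). Dcn, encoding the small proteoglycan decorin, went the other way, at 10604 and 9635 CPM (-0.14). Its ratio is not among the 3 largest of its list, and it is named after the values were seen. The median of the matrix genes was 0.52 and that of the adamalysins 0.49, beside -0.05 for all genes. Of 12 adamalysins 2 were called higher (Adam12 and Adamts4, both under 50 CPM and named after their values were seen), and the aggrecanase Adamts5 was at 141 and 233 CPM (0.72). Of 11 activators and receptors 2 were called lower (Pcsk6 and Itgb3, both under 50 CPM and chosen likewise). In macrophage-like cells 2 of 10 matrix genes were called higher (Fn1 and Eln, the latter under 50 CPM) and 2 of 6 elastases and collagenases lower (Ctsk and Fap, the latter under 50 CPM), beside 0.743% of all genes higher and 1.94% lower. Ctsk, a collagen- and elastin-cutting cathepsin, was at 138 and 46.8 CPM (-1.56), and Fn1, encoding fibronectin, at 186 and 406 CPM (1.12). In SMC-like cells Ctsk was at 147 and 66.5 CPM (-1.14), while Ctss was 0.83 higher beside the macrophage markers given above for that class, Eln, encoding elastin, 0.51 higher and the cathepsin inhibitor Cst3 lower (-0.63). Plat and Adam8 were called higher and Acan lower in that class, each under 50 CPM, beside 1.85% of all genes higher and 3.04% lower. Of the 15 other metalloproteinases in the files, 2 were tested in EC-like, 4 in SMC-like, 3 in fibroblast-like and 0 in macrophage-like cells, and none was called. Mmp23 was the only one of at least 50 CPM, at 124 and 130 CPM in SMC-like and 190.3 and 239 CPM in fibroblast-like cells.

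Among 11220 genes, those with the profile most like a member over the 13 classes were ranked by Pearson r of log2(CPM + 1), averaged over both libraries. Mmp3 was closest to Pdgfra (0.97), a receptor that marks fibroblasts, then to Clip4 and Prrx1. Mmp2 was closest to Angpt1, Maged2 and Col5a1 (0.98 each), Mmp9 to Il1a (0.97), Acod1 and 4933432I03Rik, and Mmp12 to Ntpcr (0.95), Tmem86a and Fhad1. Mmp13 was closest to Cemip (0.94), Lbhd2 and Creb3l1, Mmp14 to Tspan31 (0.97), Itpripl2 and Rin2, and Mmp19 to Ifi207, Grn and Guca1a (0.94 each). Timp1 was closest to Cercam (0.97), Htra3 and Thbs2, Timp2 to 1700021F05Rik (0.97), Cd63 and Rnase4, and Timp3 to Ccn1 and Tead1 (0.99 each) and Zfp532. Within the family the closest pairs were Mmp2 with Timp1 (0.90) and Mmp14 with Timp2 (0.89).

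Some counts may be shared with neighbouring genes, since whether the counting used strand and intronic reads is not given in the sources used here. Timp1 (chromosome X, 20870166 to 20874735) lies in Syn1 and Timp3 (chromosome 10, 86300372 to 86349506) in Syn3, both on the opposite strand. Timp2 (chromosome 11, 118301069 to 118355740) overlaps Cep295nl on its own strand, and Mmp19 (chromosome 10, 128790910 to 128800824) overlaps Gm47093 and Tmem198b on the opposite strand. Mmp2 (chromosome 8, 92827291 to 92853420), Mmp9 (chromosome 2, 164940780 to 164955850), Mmp14 (chromosome 14, 54431612 to 54445364), Mmp3 (chromosome 9, 7445822 to 7455975) and Mmp13 (chromosome 9, 7272514 to 7283331) overlap no other gene of that annotation, and Mmp12 spans 7344381 to 7369499 on chromosome 9.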

How the data were processed

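Whole-number counts of UMIs per gene and barcode were analysed as deposited by the authors. Cell Ranger 7.1.0 and mm10 are named in the submitters' processing notes. Cell calling, intron counting and pooling of animals are not given in the sources used here. The 10 genes, the marker lists and the pathway lists were chosen with earlier results of these data known.

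Barcodes with at least 500 UMIs, 300 genes and at most 10% mitochondrial UMIs were kept (39503 of 39849 WT and 28960 of 30278 EC-iCD45KO). Scrublet's own threshold marked 2 and 0 cells and so had not worked, and the highest 10% of scores per library were removed. A joint clustering without batch correction used 2000 variable genes (the 10 genes and mitochondrial genes left out), 30 components, 20 neighbours and Leiden resolution 1 (scanpy 1.11.5, leidenalg 0.10.2). A cluster was named from markers of 20 classes where their mean log2 excess over the median cluster was at least 1, its lead over the next class at least 0.75, at least 3 markers were detected, and no other class had more markers among its 10 leading genes. Their values were chosen with the data in view. They left 9709 WT and 2436 EC-iCD45KO cells unnamed.

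CPM is the summed count of a gene per 1e+06 counts of the class. Counts carry exact Poisson and shares Clopper-Pearson intervals, and exact conditional binomial intervals were used for log2 ratios (95% each). No ratio is given where either library had 3 or fewer counts. For calls set beside all genes, a gene with 3 or fewer counts in 1 library took the level of 3 counts there. Thinning to 1000 UMIs dropped shallower cells from the shares (in EC-like cells 1143 and 1505). Unthinned EC-like shares were 9.69% and 13.0% for Mmp14, and fibroblast-like shares 47.8% and 58.0% for Mmp3. All 10 members are named. Of the pathway lists, the 3 genes per list and class with the largest log2 ratio among those of at least 50 CPM could be named, and per member the 3 genes most like it. The log2 intervals were tried on simulated UMI sums of EC-like cells, drawn as Poisson counts with known folds. That simulation holds no clumping of UMIs in single cells, so it cannot show how the intervals fare where few cells hold most UMIs. edgeR 4.0.16 (R 4.3.3) gave the TMM factors, and matplotlib 3.10.9, pandas 2.3.3, scipy 1.17.1 and numpy 2.4.6 ran under Python 3.11.15. Of 32285 gene identifiers 32158 matched GENCODE M21.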

Additional observations from a re-analysis of the deposited data

Results flagged for a closer look

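The comparisons of the 4 main classes did not use the cells that stayed unnamed outside the Vcam1/Grem1 cluster (7627 WT and 1657 EC-iCD45KO cells in 8 clusters). In these cells 8 of the 10 genes were higher in the EC-iCD45KO library than in the WT library, which served as the control. The median log2 ratio of the 9 that averaged at least 5 CPM was 0.97, beside 0.06 for all 11171 genes tested, of which 55.6% were above 0. For Mmp3 the EC-iCD45KO library had 417 CPM and the WT library 91.1 CPM, for Timp1 189 and 70.5 CPM, for Timp3 273 and 139.8 CPM and for Timp2 361 and 334 CPM. Mmp14 was at 117 and 68.7 CPM, Mmp13 at 45.7 and 12.2 CPM, Mmp2 at 41.4 and 25.1 CPM and Mmp19 at 18.1 and 7.53 CPM. Mmp12 went the other way, with 32.4 and 64.1 CPM (log2 ratio -0.99, -1.26 to -0.72), and Mmp9 differed within counting error, with 3.26 and 3.66 CPM. The clusters hold different shares of the libraries, so their makeup and the libraries cannot be told apart.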

How the results depend on the processing

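No paired analysis was possible because the groups had only 1 library each, and leaving one out removes a whole group. Counting error is the only error measured, and genes under 5 CPM were too shallow for a ratio to be read. Alternatives were TMM scaling, Leiden resolution 2, cell filters that were looser or stricter, keeping doublets, the mean over single-cell CPM, no minimum level with 0.5 CPM added, and CPM without mitochondrial, ribosomal and haemoglobin genes. Equal cluster weights and leaving out the deep SMC-like cluster, the WT-only foamy cluster or both were added after the data were seen. Of 35 values of a member in a class 24 kept their direction in all alternatives run. Of 317 alternative values 17 changed sign, 15 of them outside the counting interval and 2 within it, and 73 others left the interval. Calls changed in number or kind as follows. Mmp19 was called higher in EC-like cells without doublet removal and at resolution 2, and Mmp9 without a minimum level. In SMC-like cells Mmp13 was not tested with the stricter filter, at resolution 2 or without the deep cluster, and Timp1 was called higher with the stricter filter and, with Mmp19, without the deep cluster. In fibroblast-like cells Mmp9 was not tested with the stricter or looser filter, and Mmp13 (stricter) and Mmp12 (single-cell means) were called higher. In macrophage-like cells single-cell means called Timp3 higher and not Mmp9.

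The median of the EC-like members (-0.06) was 0.052 with the stricter filter, 0.17 with the looser, 0.072 without doublet removal, 0.17 with single-cell means, 0.22 with equal weights and 0.046 without a minimum. The SMC-like median (-0.41) was 0.051 at resolution 2 and 0.11 without the deep cluster, and -0.27 (stricter), -0.36 (no doublet removal), -0.20 (single-cell means), -0.29 (equal weights) and -0.33 (TMM). The fibroblast-like median (0.45) was 0.68 with single-cell means. The signs that changed in EC-like cells were those of Timp2 (0.0024, single-cell means), Mmp2 (0.37, equal weights), Timp1 (0.21, looser filter; 0.17, single-cell means) and Timp3 (-0.011, resolution 2). In SMC-like cells they were those of Mmp12 (0.46 stricter, 0.33 looser, 0.83 resolution 2) and Mmp3 (0.28, resolution 2), and, without the deep cluster, Mmp3 (0.64), Mmp2 (0.19), Mmp14 (0.10) and Timp3 (0.11). In fibroblast-like cells Mmp13 was 1.29 (stricter) and 0.68 (single-cell means), and Mmp12 (0.089) was -0.18 (stricter) and -0.13 (resolution 2). The cause was not tested, beyond the fewer cells of the settings that leave out a cluster. The class with the highest level changed for Timp3 (chondrocyte-like with the looser filter and at resolution 2) and Mmp14 (chondrocyte-like with single-cell means), and for no other member.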
